A study of Mus musculus with 186 samples.

Results

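The basement membrane genes described here are the 3 laminin chain genes Lama1, Lamb1 and Lamc1, the collagen IV chain genes Col4a1 and Col4a2, the linker genes Nid2 and Hspg2, and Sparc and Serpinh1, which act on collagen in and outside the cell. They were chosen by name, with earlier results of these data known, and are 9 of the 55421 genes in the deposited table. All 9 were among the 11680 genes tested, but Nid2 and Hspg2 (2 of the 9) passed the filter on low values through E4.0 alone.

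RNA of single inner cells of CD-1 mouse embryos was sequenced. Fresh embryos had been collected at E3.25 (19 cells analysed), E3.75 (22 cells) or E4.0 (14 cells), where E counts days after mating, and were untreated. Other embryos were taken at E2.75 and kept in KSOM medium for 16 or 24 hours with 10 µM of the PI3K inhibitor LY294002 (LY; 31 cells at 16 hours and 24 at 24 hours) or with its vehicle DMSO (31 and 28 cells). All embryos lost their zona pellucida before immunosurgery, the lysis of outer cells by antibody and complement. Each fresh stage has 2 experiments and each culture group 3, an experiment being all cells of a group with the same collection date, pooled from several litters.

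A basement membrane is a thin sheet of extracellular matrix on which an epithelium rests. Laminin, a trimer of an α, a β and a γ chain, assembles first on the cell surface, collagen IV forms a second network, and nidogen and perlecan tie both together. In the mouse blastocyst the primitive endoderm, which forms from part of the inner cells, lays down the sheet that separates it from the epiblast, and its parietal descendants secrete the thick Reichert's membrane. SPARC binds collagen IV outside the cell, and HSP47, the product of Serpinh1, is a chaperone that escorts procollagen through the endoplasmic reticulum.

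In the mm10 annotation (GENCODE M21) Lama1 lies at chr17:67697259-67822647, Lamb1 at chr12:31265234-31329644, Nid2 at chr14:19751265-19811787 and Hspg2 at chr4:137468769-137570630, all on the plus strand. Lamc1 lies at chr1:153218922-153332786, Sparc at chr11:55394500-55423183 and Serpinh1 at chr7:99345376-99353239 on the minus strand. Col4a1 (chr8:11198423-11312826, minus strand) and Col4a2 (chr8:11312805-11449287, plus strand) stand head to head, with start sites 21 bases apart, so that their RefSeq promoter windows (GRCm38.p6) share 78 bases. The stretches below are shown because the collagen IV pair share 1 start region and because a GC box, the letters GGGCGG on either strand, was the motif most often found. Each runs 5′ to 3′ on the strand of its gene, with the GC box in capitals.
Col4a2: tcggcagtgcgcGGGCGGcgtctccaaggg
Col4a1: cccttggagacgCCGCCCgcgcactgccga
Lamb1: cctCCGCCCcctCCGCCCccgctctccatg
Hspg2: gcgtgcacgggaGGGCGGggacgggagttg
Serpinh1: ccgcaggcacagGGGCGGgagccagggtgg
The collagen IV lines are the same bases, chr8:11312800-11312829, read on the 2 strands. The others lie at chr12:31265206-31265235 (Lamb1, plus strand), chr4:137468723-137468752 (Hspg2, plus strand) and chr7:99353259-99353288 (Serpinh1, minus strand).

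RefSeq windows of 300 bases were found for 6 of the 9 genes, and Lama1, Lamc1 and Nid2 are named only. GGGCGG was present in 5 of the 6 windows, all but that of Sparc, and in 35.7% of 32851 windows of the same length. The 1 match of Col4a1 lies in the bases shared with Col4a2, so it is counted in both windows. The 6 windows had a G and C content of 55.3 (Sparc) to 74% (Col4a1), against a median of 52.7% over all windows. The part of this content in the matches was not tested. CCAAT was present in the windows of Lamb1, Col4a1 and Col4a2 (37.4% of all windows). Neither GATA form searched, AGATAA (11.2% of all windows) or TGATAA (9.1%), was in any of the 6, nor were TATAAA (13.6%), the heat shock element GAANNTTC (7.9%) or the SOX core ACAAT (31%). These are matches of letters on both strands in short windows, and the motifs were not weighed against each other where they overlap.

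Values are mean log2(TPM + 1) over the cells of an experiment, TPM being length-scaled transcript abundance as deposited. Between 3806 and 10220 genes per cell had a TPM of 1 or more (median 6584), and sequencing depth is unknown. An experiment held 3 to 18 cells. Such a mean mixes how many cells hold a transcript with how much each holds, so both are given. Libraries were primed at the 3′ end while TPM divides by transcript length, so levels are compared between samples and never between genes. Tests are limma's, on experiment means in all 7 groups, with Benjamini-Hochberg adjustment over the 11680 genes and a threshold of 0.05. Errors and p-values measure the spread between collection days, and no day holds more than 1 fresh stage, so day and stage cannot be told apart. The cells carried the pluripotency factor gene Nanog at 10 TPM or more in 148 of 169 cases, as inner cells do, while the trophectoderm factor gene Cdx2 reached it in 4 and the keratin gene Krt8, an outer cell marker, in 143.

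All 9 genes were highest at E4.0, and in 8 of them, Col4a1 excepted, both E4.0 experiments exceeded each of the other 16. Between E3.25 and E4.0, 4 of the 9 passed the test, all higher at E4.0, where 1.67% of all tested genes were called. These were Lama1, Nid2, Hspg2 and Serpinh1. Nid2 and Hspg2 entered the tested set through E4.0, the group where they are high, so the count to set beside that share is 2 of the other 7. The 9 were chosen with earlier results of these data known, so these counts describe them and do not test the set. The median difference was 3.30 over the 9 and over those 7, and 0.20 over all tested genes. Between E3.75 and E4.0, 3 of 9 passed (Nid2, Hspg2 and Serpinh1), or 1 of the 7, with 1.41% of all genes called, a median of 2.33 over the 9 and over the 7 and of 0.29 over all genes. These comparisons share the E4.0 samples. Between E3.25 and E3.75 limma called 0 of the 9 and 0% of all genes, and at an unadjusted p under 0.05 it found 0 of the 9 and 536 of all genes, with medians of 0.66 over the 9 and -0.09 over all. In the order of the 7 group means E4.0 stood apart from the group below it for each gene, and further down only Lamc1 had neighbours whose experiments did not overlap (E3.25 above DMSO at 24 hours).

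**Figure D1:**
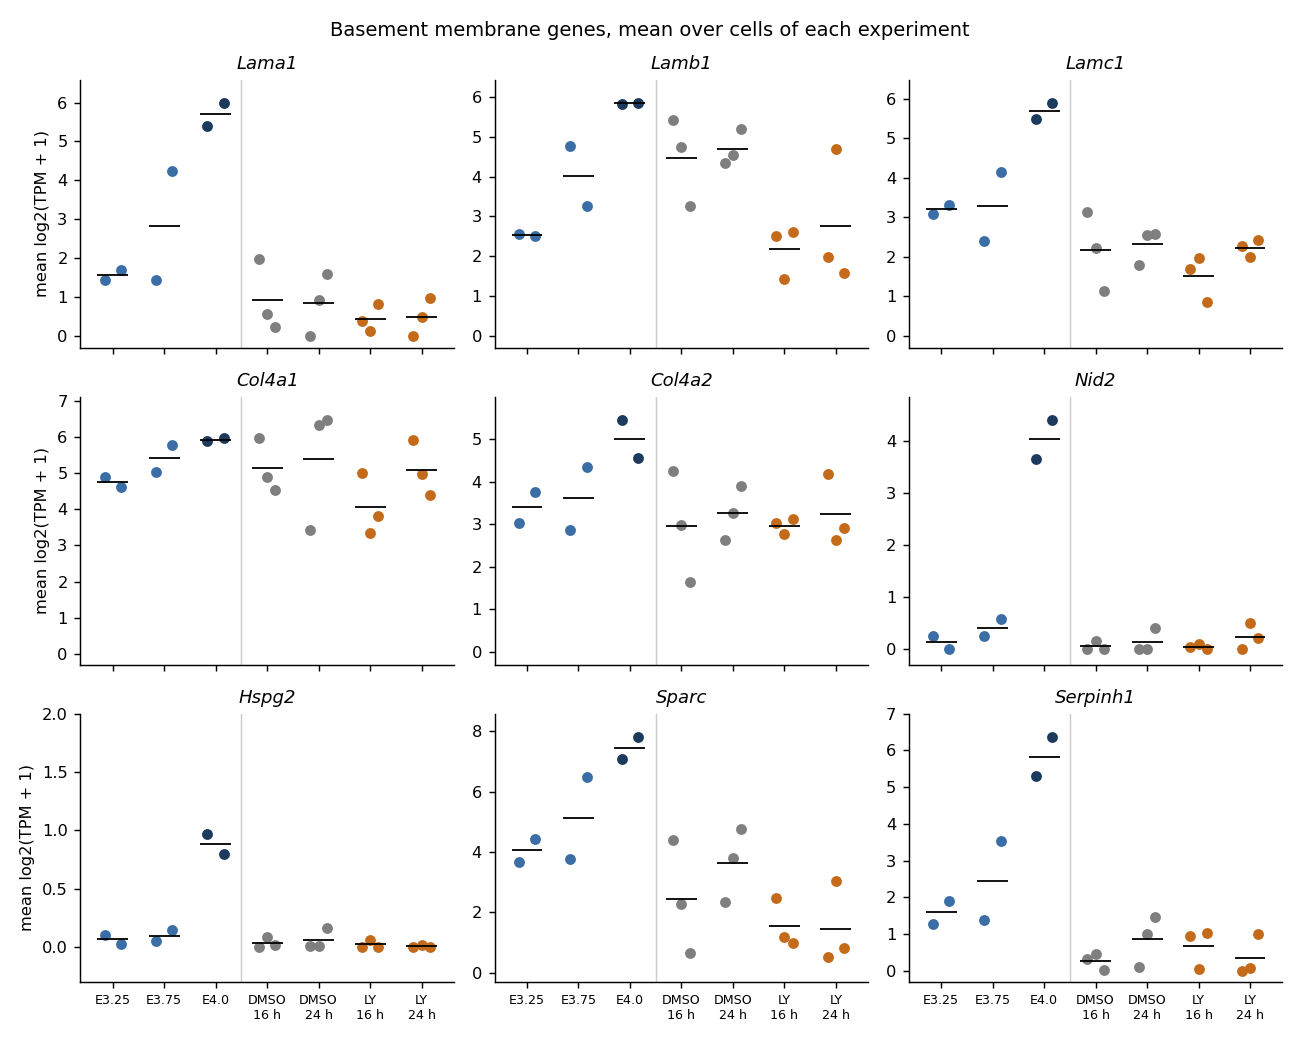
Mean log2(TPM + 1) of each basement membrane gene (vertical axis) in each experiment (points) of the 7 groups (horizontal axis), with the group mean as a line; fresh groups in blue, DMSO in grey, LY in orange. Both E4.0 points are above the points of all other groups except for Col4a1, where 4 other experiments reach the lower E4.0 value.

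Lama1 encodes the laminin α chain of the earliest embryonic laminin. Its experiment means were 1.44 and 1.69 at E3.25, 1.43 and 4.24 at E3.75, and 5.40 and 5.99 at E4.0. The E4.0 values exceeded the rest, while the 2 experiments of E3.75 lay far apart. Lama1 rose by 4.13 ± 0.80 (SE) between E3.25 and E4.0 (limma adjusted p = 0.00657), and the difference from E3.75 was 2.86 with an adjusted p of 0.0990. The E3.25 call missed the threshold without either E3.25 experiment (adjusted p = 0.0608 and 0.0666) or without the second E4.0 experiment (0.0550). By cell, Lama1 was at 10 TPM or more in 3 of 19 E3.25 cells, 9 of 22 E3.75 cells and 12 of 14 E4.0 cells (85.7%, exact 95% interval 57.2 to 98.2%, counting error only). Its median over cells went from 1.13 to 2.55 to 87.8 TPM.

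Lamb1 and Lamc1 encode the β and γ chains that complete that laminin. Lamb1 had means of 2.56 and 2.52 at E3.25, 4.78 and 3.27 at E3.75, and 5.83 and 5.85 at E4.0, so that the 3 stages did not overlap. Lamc1 had 3.09 and 3.32, then 2.39 and 4.15, then 5.48 and 5.89, with E3.25 inside the range of E3.75. From E3.25 to E4.0 neither passed (differences of 3.30 and 2.48, limma adjusted p = 0.0830 and 0.127). Both did pass when the pseudocount was 10 in place of 1 (adjusted p = 0.0472 and 0.0132).

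All 3 laminin chains stood at 10 TPM or more in the same cell in 2 of 19 E3.25 cells, 5 of 22 E3.75 cells and 11 of 14 E4.0 cells. The same TPM need not be the same abundance for each chain, so these counts are read between stages. Cells with Lamb1 at that level and Lama1 below it numbered 5 (E3.25), 11 (E3.75) and 1 (E4.0), and 57 in the 4 culture groups. Lama1 is not the only laminin α chain gene. Lama5 had means of 7.12 and 6.07 at E3.25, 5.29 and 6.52 at E3.75, and 5.85 and 7.61 at E4.0. In culture Lama5 lay between 4.57 and 7.75. The counts therefore do not show cells that lack any α chain.

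Col4a1 and Col4a2 encode the chains of the collagen IV found in all basement membranes. Col4a1 had the smallest difference relative to its error in both comparisons with E4.0. Its means were 4.89 and 4.61 at E3.25, 5.03 and 5.78 at E3.75, and 5.88 and 5.97 at E4.0, and 4 of the 16 other experiments reached the lower E4.0 value. Its difference between E3.25 and E4.0 was 1.18 (95% interval -0.72 to 3.07, limma adjusted p = 0.652). Col4a2 had means of 3.04 and 3.76, 2.88 and 4.35, and 5.45 and 4.56, a difference of 1.60 (-0.16 to 3.36, adjusted p = 0.446). Both were at 10 TPM or more in the same cell in 4 of 19, 12 of 22 and 11 of 14 cells. At E3.25 Col4a1 was at that level in 12 of 19 cells, counted with or without Col4a2, and in 8 of them without it. The Spearman correlation of the pair across cells was 0.246, 0.505 and 0.820 at the 3 stages.

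Nid2 encodes nidogen-2, a linker between laminin and collagen IV. It was near 0 in the early stages, with means of 0.26 and 0.01 at E3.25 and 0.25 and 0.57 at E3.75, and stood at 3.67 and 4.42 at E4.0. No experiment outside E4.0 exceeded 0.57. Nid2 rose by 3.91 ± 0.33 (SE) from E3.25 and by 3.63 ± 0.33 from E3.75 (limma adjusted p = 3.38e-07 and 9.59e-07). With no filter on low values, so that E4.0 does not decide which genes are tested, the adjusted p was 5.47e-06 and 1.27e-05. It was at 10 TPM or more in 0 of 19 cells at E3.25 (which allows a share of up to 15.8%), 1 of 22 E3.75 cells and 10 of 14 E4.0 cells. Exons of Nid2 share 437 of 5174 bases with Rtraf, a gene on the opposite strand, and the sources used here do not say whether counting used strand. Rtraf itself lay between 5.44 and 7.85 in all 18 experiments, including the 16 in which Nid2 was at 0.57 or less.

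Hspg2 encodes the core protein of perlecan, a large heparan sulfate proteoglycan. Its means were 0.10 and 0.03 at E3.25, 0.05 and 0.14 at E3.75, and 0.97 and 0.80 at E4.0. E4.0 did not overlap the earlier stages, but no cell reached 10 TPM and the highest value in any cell was 4.84 TPM. Hspg2 rose by 0.82 ± 0.18 (SE) from E3.25 and 0.78 ± 0.18 from E3.75 (limma adjusted p = 0.0208 and 0.0309). With no filter on low values the adjusted p was 8.53e-05 and 0.000152. That fit also takes its estimate of the spread from many more genes near 0, so the lower values are not stronger support. With a pseudocount of 10 both calls were lost (adjusted p = 0.123 and 0.181). The first call was lost without either E3.25 experiment (adjusted p = 0.0748 and 0.188) and after quantile normalization (0.113), and the second without either E3.75 experiment (0.203 and 0.135), without the first E4.0 experiment (0.0567) and after quantile normalization (0.283). These calls rest on values below 5 TPM, where the pseudocount sets much of the difference.

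Sparc had means of 3.67 and 4.44 at E3.25, 3.76 and 6.47 at E3.75, and 7.08 and 7.80 at E4.0. Its E4.0 values lay above the rest, yet the difference of 3.39 from E3.25 did not pass (limma adjusted p = 0.173; 95% interval 1.02 to 5.75). With a pseudocount of 10 it did (0.0333). By cell the median went from 13.1 to 23.3 to 244 TPM.

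Serpinh1, the HSP47 gene, had means of 1.27 and 1.90, 1.38 and 3.53, and 5.31 and 6.36 in the same order. It rose by 4.25 ± 0.71 (SE) from E3.25 and by 3.38 ± 0.71 from E3.75 (limma adjusted p = 0.00158 and 0.0152). The second of these calls was lost without the first E3.75 experiment (adjusted p = 0.269) or the second E4.0 experiment (0.133). Serpinh1 was at 10 TPM or more in 4 of 19, 5 of 22 and 12 of 14 cells, and its median over cells went from 0.22 to 2.10 to 120 TPM.

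**Figure D2:**
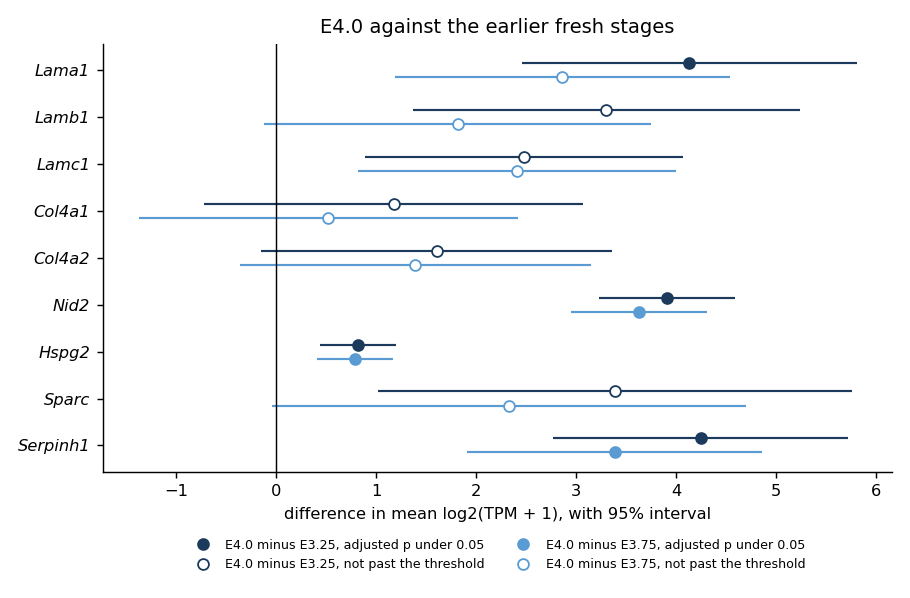
Difference in mean log2(TPM + 1) between E4.0 and E3.25 (dark) or E3.75 (light) for each gene, with limma's 95% interval; filled points passed an adjusted p of 0.05. Nid2 has the narrowest interval among the genes that differ by more than 3, and the intervals of Col4a1 and Col4a2 include 0 in both comparisons.

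The 2 experiments of E3.75 lay apart: the second was higher for 8 of the 9 genes, by more than 0.5 on the log2 scale for 6, and Lamb1 went the other way. The second held a median of 6 of the 9 genes at 10 TPM or more per cell and the first 3. In it the primitive endoderm factor genes Gata4 (3.60 against 1.68) and Sox17 (3.71 against 1.34) were higher too, and mitochondrial transcripts took 4.54% of TPM against 16.1%. The part of these in the result was not tested. At E4.0 more genes were detected per cell (7236 and 7682) than at E3.25 (6393 and 6078). With the number of genes detected as a covariate the same genes of the 9 were called as without it, Nid2 and Hspg2 among them.

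Sequencing was done in 2 runs, each of which held cells of every experiment. Within run 2 alone 4 of the 9 genes passed between E3.25 and E4.0 and 3 between E3.75 and E4.0, with 3.29% and 1.39% of all genes called. Nid2 and Hspg2, which entered the tested set through E4.0, are in both counts. Within run 1 alone 0.103% and 0.111% of all genes were called. Of the 9 only Nid2 passed in the first comparison (difference 4.00, limma adjusted p = 0.0214), and it entered the tested set through E4.0. Lama1 and Serpinh1 differed by 4.05 and 3.72 (adjusted p = 0.407 and 0.298). With the log2 of the mean TPM over cells, which weighs single high cells more, Nid2 passed from E3.25 (4.47, adjusted p = 0.00401), while Lama1 (3.83, 0.289) and Serpinh1 (3.28, 0.470) did not.

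Per cell, the median number of the 9 genes at 10 TPM or more went from 3 (E3.25) and 4 (E3.75) to 8 (E4.0), the most that occurred, since Hspg2 never reached that level. At E4.0, 10 of 14 cells held 7 or 8 of them. The remaining 4 cells held 2, 3, 6 and 6. In the cells with 2 and 3, Serpinh1, Gata4, Sox17 and Srgn are listed at 0, with Lama1 at 3.28 and 0 TPM. Not all such genes were absent from them. The primitive endoderm factor gene Gata6 was at 10 TPM or more in both, and at 41.55 TPM in the cell with 3. The outer cell marker gene Krt8 was at 10 TPM or more in both as well. Lamb1 was at 89.71 TPM in the cell with 2.

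**Figure D3:**
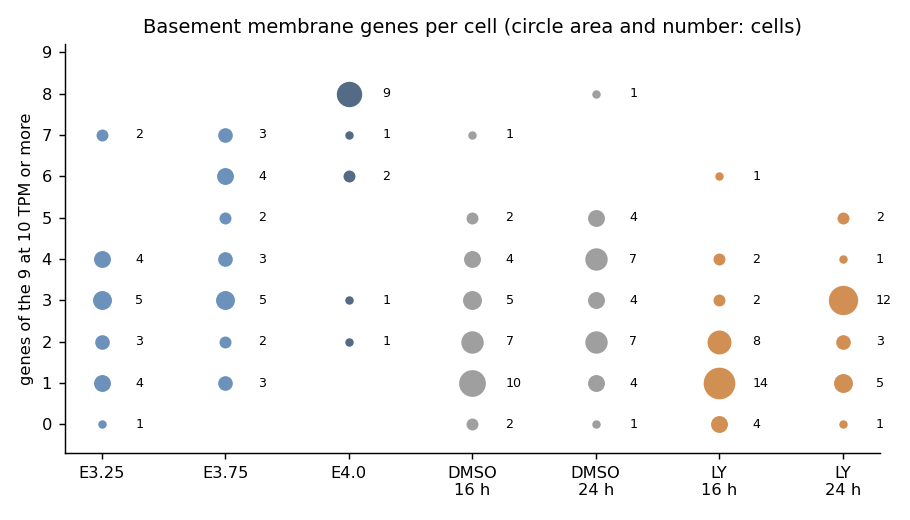
Number of the 9 genes at 10 TPM or more in a cell (vertical axis) for the cells of each group (horizontal axis); circle area and the figure beside it give the number of cells. At E4.0, 9 of 14 cells hold 8 genes, a number seen in 1 other cell, in DMSO at 24 hours.

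Across the 14 cells of E4.0 the genes varied together. All 36 pairs had a Spearman correlation above 0, from 0.029 to 0.916 with a median of 0.661, and after centring each gene within its experiment 35 of 36 did (median 0.716). Lama1 tracked Col4a2 (0.916), Lamc1 (0.899) and Lamb1 (0.864). Nid2 stood apart, with a median correlation of 0.233 to the other 8, against 0.855 for Lama1. These cells come from 2 days, so the values describe these libraries. The number of genes detected correlated with the 9 genes by -0.165 to 0.157.

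Among primitive endoderm regulators at E4.0, Gata4 correlated with Lamc1 at 0.871 and Lama1 at 0.832, and Sox17 with Sparc at 0.917. Gata6, the earliest of these factors, correlated with the 9 genes by -0.451 to 0.178. The values for Nid2 were 0.618 for Foxa2, 0.394 for Gata4 and 0.037 for Sox17. Nanog, the epiblast factor gene, correlated below 0 with 8 of the 9 (lowest -0.701, Lamb1) and at 0.327 with Nid2. At the other stages and in culture the median correlation between pairs was lower, from -0.065 in LY at 24 hours to 0.326 in DMSO at 24 hours. In culture these medians are over fewer pairs, as genes above 0 in too few cells were left out. There were 15 and 28 pairs in DMSO and 21 and 15 in LY at 16 and 24 hours, against 36 in each fresh stage.

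**Figure D4:**
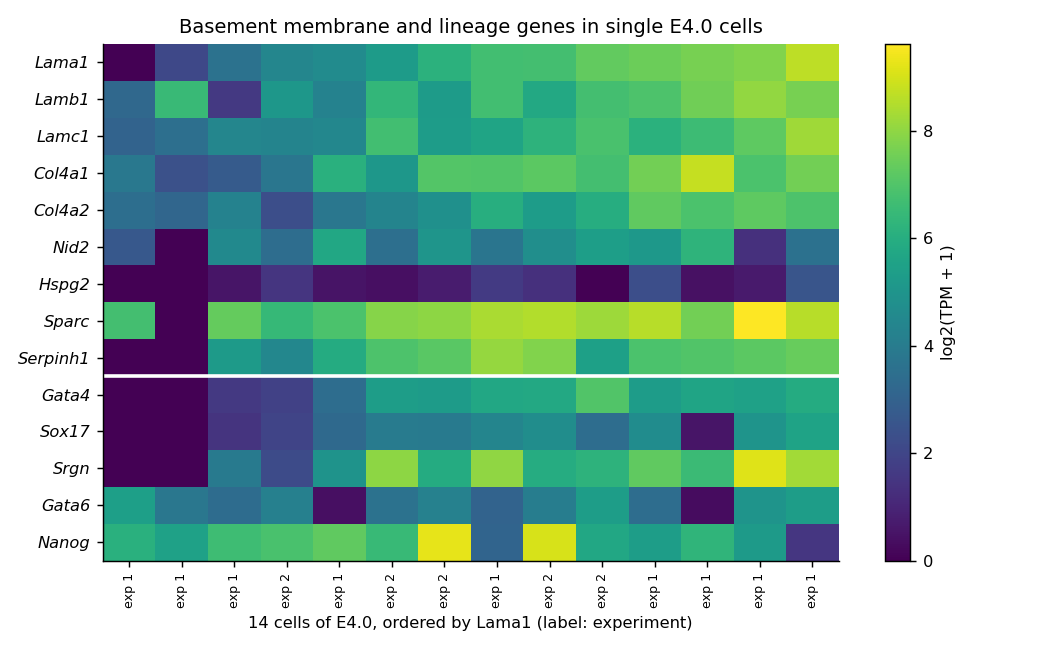
Level, as log2(TPM + 1), of the 9 genes (above the white line) and of 5 lineage genes (below it) in each of the 14 cells of E4.0, ordered by Lama1. Lama1, Lamc1, Col4a2, Sparc, Serpinh1 and Gata4 are higher towards the right, while Nid2 and Gata6 do not follow the order.

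Other genes of the matrix were read from lists of the same kind. None of the 4 tested of 8 other laminin chain genes passed between E3.25 and E4.0 (most different: Lama3, -0.63, limma adjusted p = 0.722), and none of 4 other collagen IV chain genes was tested. Of 18 other basement membrane components 8 were tested and none passed. The nearest was Agrn, which encodes the heparan sulfate proteoglycan agrin, with a difference of 3.35 and an adjusted p of 0.0790. None of 9 tested receptor genes passed, with a median of -0.34 and 1 above 0 (most different: the laminin receptor chain gene Itga6, -1.30, adjusted p = 0.653).

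Serpinh1 was set beside other collagen processing genes. Of 17 tested genes for collagen folding and export none passed, 11 were above 0 and the median was 0.57 (most different: P4ha2, a prolyl hydroxylase subunit gene, 2.16, limma adjusted p = 0.184). Of 3 tested genes for matrix crosslinking and proteolysis, Htra1, a secreted serine protease gene, passed with a rise of 4.62 (adjusted p = 0.000373).

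Lineage markers give the setting. Between E3.25 and E4.0, 3 of 7 primitive endoderm regulators passed, all higher (Foxa2, Sox7 and Gata4, by 3.09, 2.03 and 3.22; limma adjusted p = 7.43e-07, 0.000149 and 0.00942). So did 3 of 5 tested parietal endoderm markers (Srgn 5.21, Pth1r 3.74 and Vim 1.49; adjusted p = 2.07e-07, 2.07e-07 and 0.0444) and 1 of 5 tested visceral endoderm markers (Amn 5.11, adjusted p = 0.000165). None of 12 epiblast or 13 tested trophectoderm markers did. Of all tested genes 1.67% were called. Outside E4.0 no experiment mean exceeded 0.32 for Foxa2, 0.47 for Sox7, 0.58 for Pth1r and 0.89 for Srgn. Such genes may have entered the tested set through E4.0, where they are high, which was not checked. The marker counts are thus a description. The summed level of the 7 regulators was 85.4 to 115 TPM in the E4.0 experiments and 33.3 to 120.3 at E3.25, so the ranges overlapped. That of the 9 parietal markers was 131 to 197 against 7.19 to 20.4, with Thbd and Pthlh at 0 in every E4.0 cell. The 10 visceral markers did not overlap either, with 581 to 1214 against 135 to 474 TPM and Afp and Apob at 0 in every E4.0 cell. The part of these markers in the rise of the basement membrane genes was not tested.

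The genes whose 18 experiment means were most like the mean profile of the 9 (outside all the lists) were Rcbtb1, Spry4, F2r, Bend5, Car2, Rhpn1, Ifitm3 and Trh, with Pearson correlations of 0.948, 0.936, 0.933, 0.932, 0.930, 0.924, 0.922 and 0.920 over 18 experiments that share libraries with the profile. Of the 9 genes themselves Lama1 (0.955) and Lamc1 (0.945) were closest to it and Col4a1 (0.653) and Lamb1 (0.668) farthest.

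Before the culture comparisons, 1 cell in each DMSO group stood apart. In DMSO at 16 hours a cell held Lama1 at 207, Lamc1 at 225, Sparc at 295 and Serpinh1 at 329 TPM, and in DMSO at 24 hours another held Lama1 at 329, Lamc1 at 92.5, Sparc at 312 and Serpinh1 at 190 TPM. Their Gata4 (61.5 and 84.3 TPM), Srgn (169 and 254) and Htra1 (67.2 and 189) were high as well. Sox17 (10.8 and 0.09), Sox7 (31.7 and 2.19) and Foxa2 (54.8 and 6.73) were lower in the second cell than in the first. Across tested genes each correlated more with the mean E4.0 profile (0.784 and 0.864) than with the rest of its own group (0.716 and 0.798). The correlations with the mean E3.75 profile lay between these (0.738 and 0.811). Other DMSO cells were not compared in this way. These cells were picked for their values, so this is a description, and whether they carry the right label cannot be settled from the labels. The first alone held 89.6% of the summed Lama1 TPM and 99.7% of the Serpinh1 TPM of its group of 31 cells, and the second 89% and 78.5% among 28 cells. Without both, the count of the 9 genes past the threshold was the same in all 9 comparisons. The differences between fresh stages hold no DMSO cell, and the counts with DMSO were 0 before, so equal counts say little. Between the DMSO times the small differences of Nid2 (0.08 to -0.06) and Hspg2 (0.022 to -0.0002) changed sign.

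Culture in DMSO was set beside the fresh stage of nearest age. Lama1 had means of 1.98, 0.56 and 0.24 at 16 hours and 0.01, 0.93 and 1.60 at 24 hours, and Serpinh1 0.32, 0.46 and 0.02, then 0.11, 1.00 and 1.45. Lamb1 stood at 5.44, 4.74 and 3.27, then 4.34, 4.54 and 5.19. Lamb1 thus overlapped its E3.75 values while Lama1 lay below its own in 4 of the 6 experiments. In 19 of 31 and 20 of 28 cells Lamb1 was at 10 TPM or more and Lama1 below it. Lama1 was at 1 TPM or more in 5 of 31 and 10 of 28 cells. The same TPM need not be the same abundance for each chain, so these counts do not rank the 2 genes. All 3 chains were at 10 TPM or more in 1 cell of each group, the cells described above.

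Between DMSO at 16 hours and E3.25 limma called 0 of the 9 genes, with 0.0514% of all genes called, and at an unadjusted p under 0.05 it found 1 of the 9 and 1599 of all genes. Lamb1 differed by 1.94 (adjusted p = 0.327), and by 0.90 with the number of genes detected as a covariate. Sparc differed by -1.62 (adjusted p = 0.487), by -3.41 with that covariate (0.256), and by -2.61 without the first and -0.72 without the third DMSO experiment. Serpinh1 differed by -1.32 (adjusted p = 0.372). The median of the 9 was -0.44 and that of all genes 0.32. Between DMSO at 24 hours and E3.75, 0 of the 9 and 0% of all genes were called. At an unadjusted p under 0.05 limma found 370 of all genes and 2 of the 9, Lama1 (-1.99, 95% interval -3.52 to -0.46) and Serpinh1 (-1.60, -2.94 to -0.25), both with an adjusted p of 1. Medians were -0.35 over the 9 and 0.10 over all genes. Between the DMSO times it called 0 of the 9 and 0.00856% of all genes (0 of the 9 and 1268 of all at an unadjusted p under 0.05), with 8 of the 9 above 0 at 24 hours by 0.02 to 1.21 and medians of 0.21 (the 9) and -0.29 (all genes). Col4a1 means in DMSO were 5.98, 4.90 and 4.52 after 16 hours, then 3.42, 6.33 and 6.47, overlapping the fresh stages, and Col4a2 4.26, 2.98 and 1.65, then 2.63, 3.26 and 3.91. Lamc1 was 3.14, 2.22 and 1.15, then 1.80, 2.55 and 2.58, and Sparc 4.40, 2.26 and 0.64, then 2.33, 3.81 and 4.77.

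The comparison of LY with DMSO asks what blocking PI3K does to these genes. limma called 0 of the 9 at 16 hours and 0 at 24 hours, with 0% of all genes called at either time, and at an unadjusted p under 0.05 it found 641 and 615 genes, 1 and 2 of them among the 9. The interaction, the difference between the effects at both times, gave 0 of the 9 and 0% of all genes (291 at an unadjusted p under 0.05, 0 of the 9). Medians over the 9 were -0.48 and -0.31, near those of all genes, -0.33 and -0.20. Dates are shared by both arms, so values are given by date. The tests given here do not pair the arms, so differences between dates add to their error. A fit with the date as a block, given at the end, changed no call.

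Lamb1 means in LY at 16 hours were 2.51, 1.43 and 2.61, against 5.44, 4.74 and 3.27 in DMSO on the same dates. It was lower in LY on 3 of 3 dates, by 2.93, 3.30 and 0.66, and the arms did not overlap. The difference was -2.30 (95% interval -3.88 to -0.71, unadjusted p = 0.00654, limma adjusted p = 0.809), and the share of cells at 10 TPM or more was 6 of 31 in LY against 21 of 31 in DMSO. At 24 hours the LY means were 1.98, 4.70 and 1.57 against 4.34, 4.54 and 5.19, lower on 2 of 3 dates, with a difference of -1.94 (-3.52 to -0.36, adjusted p = 0.899) that was -2.91 without the second LY experiment.

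Sparc at 24 hours was 0.52, 3.05 and 0.81 in LY against 2.33, 3.81 and 4.77 in DMSO, lower on 3 of 3 dates while the arms overlapped. Its difference was -2.18 (95% interval -4.11 to -0.24, limma adjusted p = 0.899). At 16 hours it was 2.46, 1.17 and 1.00 in LY, lower on 2 of 3 dates. The difference of -0.89 turned to 0.32 with the number of genes detected as a covariate and to 0.09 without the first DMSO experiment. Lama1 means in LY were 0.40, 0.12 and 0.82 after 16 hours, then 0.01, 0.49 and 0.97, and the arms overlapped at both times.

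Col4a1 in LY was 5.01, 3.34 and 3.80 at 16 hours, lower than DMSO on 3 of 3 dates (difference -1.08, limma adjusted p = 0.855), and 5.91, 4.98 and 4.39 at 24 hours, where the dates disagreed by -2.08 to 2.49. Col4a2 in LY was 3.02, 2.77 and 3.12, then 4.18, 2.62 and 2.91, and differed from DMSO by 0.01 and -0.03, with 95% intervals of -1.43 to 1.44 and -1.46 to 1.41. Lamc1 was lower on 3 of 3 dates at 16 hours (1.69, 1.96 and 0.85 in LY, difference -0.67) and on 2 of 3 at 24 hours (2.28, 2.00 and 2.41, difference -0.08). Serpinh1 in LY was 0.95, 0.06 and 1.02, then 0.00, 0.07 and 0.99, and differed by 0.41 and -0.50. Without the high DMSO cell of each time the differences at 24 hours were -0.30 for Serpinh1, 0.05 for Lamc1 and 0.07 for Col4a2, and that of Col4a2 at 16 hours was 0.08. The means of Nid2 and Hspg2 stayed at 0.51 or less in every LY and DMSO experiment. By cell, Nid2 reached 10 TPM in 1 of 24 LY cells (66.1 TPM) and 1 of 28 DMSO cells (20.4 TPM) at 24 hours. At 16 hours it did so in 0 of 31 cells of either arm.

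Fewer genes were detected per cell in LY than in DMSO on 6 of 6 dates, with 279 to 1692 fewer genes. With the number of genes detected as a covariate, the Lamb1 differences were -1.59 and -1.37 and that of Sparc at 24 hours was -1.19. After quantile normalization the Lamb1 difference at 16 hours was -1.81. The first DMSO experiment at 16 hours held 3 cells with 9995 genes each on average, and without it the Lamb1 difference at 16 hours was -1.82. All 3 laminin chains were at 10 TPM or more in 0 of 31 and 0 of 24 LY cells, against 1 of 31 and 1 of 28 DMSO cells.

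**Figure D5:**
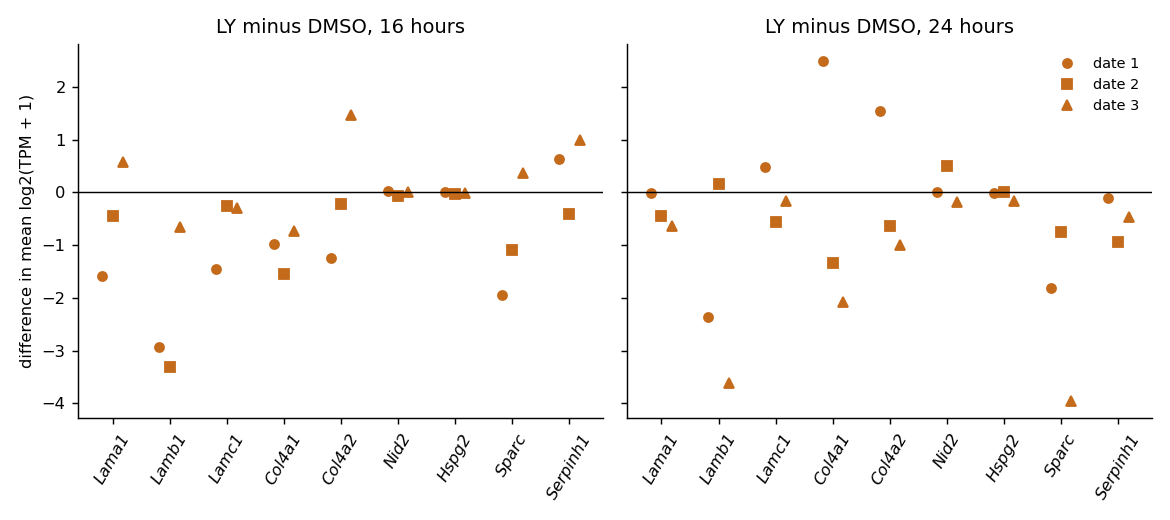
Difference in mean log2(TPM + 1) between LY and DMSO for each gene (horizontal axis) on each of 3 shared dates (symbols) at 16 hours (left) and 24 hours (right). Lamb1 lies below 0 on all dates at 16 hours and on 2 of 3 at 24 hours, and Sparc on all dates at 24 hours.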

How the data were processed

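Per the labels' protocols, polyadenylated RNA of single inner cells was reverse-transcribed from the 3′ end, amplified, tagmented (Nextera XT) and sequenced in pairs. The authors deposited 1 table of TPM values; the tools include STAR 2.7.9a and RSEM 1.3.3 on build mm10, after bcl2fastq 2.20.0 and cutadapt 2.9, as the submitters' processing notes list them. Settings and annotation are not given in the sources used here. The table has 55513 lines, 92 of them spike-ins, and 170 columns. Of 186 labelled samples 16 were not analysed here. In 1 of 2 title pairs (r = 0.824) the columns were averaged as 1 cell, leaving 169; no filter on cells was applied and doublets were not called, each sample being 1 picked cell.

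Genes with a TPM of 1 or more in 25% of the cells of at least 1 group were kept. Experiment means of log2(TPM + 1), which understates changes of low genes, were fitted with limma 3.58.1 in R 4.3.3 (eBayes with trend, 11 residual degrees of freedom), over all 7 groups and in 9 comparisons. The script was tested on simulated data. Sequences and windows are RefSeq's (GRCm38.p6); loci are GENCODE M21's.

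LY and DMSO arms carry the same date labels, so dates pair them: deviations of same-date arms correlated across genes at 0.393, 0.121 and 0.317 (16 hours) and 0.231, 0.120 and 0.0732 (24 hours).

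Members and lists were chosen with earlier results of these data known. Named are all 9 genes and, from other lists, genes past the threshold (at most 6 per list) or else the most different one. A fixed set of regulators and the 8 genes nearest in profile are named too. Lama5 was added to show the level of another laminin α chain gene. One marker list is given without 1 gene, which is not reported here. Alternatives tried were other pseudocounts, filters and summaries, each run alone, quantile normalization, a covariate, cell weights, smaller fits, a date block and leaving out each experiment; leaving out the 2 high DMSO cells was added after seeing the data.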

Additional observations from a re-analysis of the deposited data

How the results depend on the processing

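Between E3.25 and E4.0 the count of the 9 genes past the threshold was 4, and between E3.75 and E4.0 it was 3, with 1.67% and 1.41% of all genes called. Nid2 and Hspg2, which passed the filter through E4.0 alone, are in both counts. With the log2 of the mean TPM over cells the counts were 1 and 1, within sequencing run 1 they were 1 and 1, and in fits of only the groups compared, with fewer degrees of freedom, 0 and 0 (no gene of the table was called there). Leaving out 1 experiment at a time gave 2 to 4 for the first comparison and 1 to 3 for the second. In the other alternatives the counts were 3 to 6 and 2 to 4. Nid2 passed in 17 of 18 alternatives in both comparisons, Serpinh1 in 15 and 12, Lama1 in 11 (from E3.25), and Hspg2 in 10 and 9 of the 17 in which it was tested; the stricter filter removed it. No called difference changed sign in any alternative. In the other 7 comparisons the count was 0 in every alternative. The fit with the date as a replicate block changed no call: at 16 hours Lamb1 differed by -2.30 with a limma adjusted p of 0.334, against 0.809 without the block, and the counts were 0. Depth is unknown, so a TPM of 0 in a cell does not separate absence from loss in amplification. The causes of these changes were not tested.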
